A study of Rattus norvegicus with 4 samples.

Results

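Corticotrophs of the rat anterior pituitary were taken from single-cell RNA-seq libraries by what each cell held of 6 genes. A cell was a corticotroph where at least 2% of its unique molecular identifiers (UMIs, the counted mRNA molecules) were from Pomc, less than 5% from Gh1, less than 2% from Prl and less than 1% from Cga, with 0 UMIs of Pax7 and fewer than 3 of Pcsk2. This rule was met by 824 of 7861 cells, or 10.5% (95% exact Clopper-Pearson interval 9.81 to 11.2%). Cells came from 2 pools of Sprague Dawley rats, 1 of 4 diestrous females at 44 days of age and 1 of 4 males at 59 days, with no treatment and with the intermediate and posterior lobes taken off at dissection. Each pool was loaded on 2 lanes, referred to here as female lanes A (1868 cells) and B (1861 cells) and male lanes A (2047 cells) and B (2085 cells). The lanes of a sex are repeat samplings of 1 pool, so p-values for sex measure only the spread between lanes, and sex, age and pool cannot be told apart.

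Corticotrophs are the ACTH-producing cells of the anterior lobe and the middle step of the stress axis. The hypothalamus releases corticotropin-releasing hormone (CRH) and vasopressin, which act on the receptors encoded by Crhr1 and Avpr1b. The product of Pomc, proopiomelanocortin, is cut by proprotein convertases into ACTH, and the adrenal glucocorticoids evoked by ACTH act back on the corticotroph through the glucocorticoid receptor, encoded by Nr3c1. Melanotrophs of the intermediate lobe use the same precursor, which their convertase Pcsk2 cuts further into alpha-MSH, and they are specified by the transcription factor Pax7. The T-box factor Tbx19 activates Pomc in both cell types, and the basic helix-loop-helix factor Neurod1 acts on an E-box upstream of Pomc in corticotrophs.

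The promoter windows of the precursor gene and of the most abundant of the other markers, Doc2g, which encodes a C2-domain protein of the Doc2 family, show what lies at the start of both genes. Each window runs from 250 bases before to 50 bases after the transcript start in RefSeq (assembly GRCr8), 5′ to 3′ on the gene's strand. Capitals mark the TATA box TATAAA and the E-box CATCTG in Pomc, and the T-box element TCACACC and the E-box, read on the opposite strand as CAGATG, in Doc2g. The Pomc window lies at chr6:32659103-32659402 and the Doc2g window at chr1:210725578-210725877, both on the plus strand.
Pomc: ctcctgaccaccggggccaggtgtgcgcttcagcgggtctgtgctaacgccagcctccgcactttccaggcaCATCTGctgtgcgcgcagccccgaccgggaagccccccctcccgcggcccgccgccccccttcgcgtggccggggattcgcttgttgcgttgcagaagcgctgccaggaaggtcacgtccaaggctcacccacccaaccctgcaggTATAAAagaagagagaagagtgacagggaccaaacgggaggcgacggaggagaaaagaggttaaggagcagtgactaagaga
Doc2g: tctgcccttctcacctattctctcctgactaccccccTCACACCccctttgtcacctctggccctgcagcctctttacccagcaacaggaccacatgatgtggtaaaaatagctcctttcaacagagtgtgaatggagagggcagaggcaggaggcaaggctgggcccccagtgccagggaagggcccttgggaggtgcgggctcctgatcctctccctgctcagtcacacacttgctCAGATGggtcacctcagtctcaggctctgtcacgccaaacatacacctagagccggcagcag
The E-box of Pomc began 178 bases and its TATA box 32 bases before the start, and in Doc2g the T-box element began 213 bases and the E-box 12 bases before it. The motifs do not overlap one another in these windows. Of 33469 RefSeq windows of 300 bases, 16.6% held CATCTG, 14.2% TATAAA and 3.83% TCACACC on either strand. A match describes the letters and is not a shown binding site. Neither of the 2 Crhr1 windows held any of these motifs.

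The files held 86742346 UMIs over 30058 genes, of which 10012913 UMIs over 18992 genes were in corticotrophs. By lane, corticotrophs numbered 174 (9.31%) in female lane A, 181 (9.73%) in female lane B, 236 (11.5%) in male lane A and 233 (11.2%) in male lane B. Both male lanes held a higher share than both female lanes, 11.4% against 9.52% over the lanes. With 2 lanes against 2, no exact 2-sided permutation test can go below p = 0.333. The 95% exact intervals of the lanes overlapped, running from 8.03 to 10.7% in female lane A and from 10.2 to 13.0% in male lane A, and they cover counting error only. The median corticotroph had 10368 UMIs in female lane A, 12344 in female lane B, 12061 in male lane A and 12119 in male lane B, against 8853 over all cells. No corticotroph barcode occurred in more than 1 lane, while 30 barcodes over all cells did.

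Of 918 cells with Pomc at or above 2% of UMIs, 56 were set apart by Pax7 or Pcsk2 and are called melanotrophs here, 23 also had Gh1 at or above its limit, 8 Prl and 7 Cga. The 3 corticotrophs nearest the Pomc limit had 2.01, 2.1 and 2.31% of UMIs from Pomc, and the 3 nearest cells outside it 1.86, 1.85 and 1.84%. Of the 32 cells that met all other limits with 1 to 2% Pomc, 78.1% had a UMI of Doc2g and 59.4% of Crhr1, so the rule left out some cells that carry the other markers. In all, 39 cells outside the group had a UMI of each of Crhr1, Avpr1b, Tbx19 and Doc2g. Cells with 2 strong programmes were removed only through the hormone limits, since no doublet caller was run.

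Pomc was the leading mRNA of these cells. It made up 21.05% of corticotroph UMIs in female lane A, 22.8% in female lane B, 20.03% in male lane A and 19.3% in male lane B. Both female lanes were above both male lanes by a gap smaller than that between the female lanes, and because Pomc chose the cells this is a description. Corticotrophs held 94.1, 92.4, 86.1 and 81.4% of all Pomc UMIs in female lanes A and B and male lanes A and B. Melanotrophs, which held part of the rest, were nearly all in the male lanes (24 in male lane A, 31 in male lane B, 1 in female lane B and 0 in female lane A). Per cell, Pomc ran from a 5th percentile of 5.6% to a 95th percentile of 33.7% of UMIs around a median of 19.1%, and reached 48.5% in 1 cell.

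**Figure D1:**
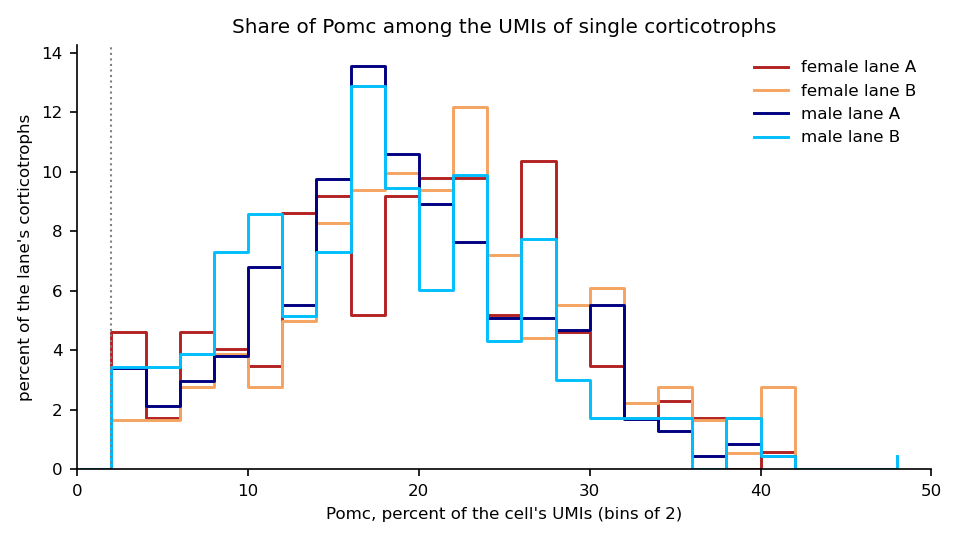
Share of each corticotroph's UMIs that came from Pomc (x axis, percent, bins of 2 points) against the percent of the lane's corticotrophs in the bin (y axis), 1 line per lane, with the rule's limit of 2% dotted. The lanes overlie each other with medians between 17.5 and 20.8%, and few cells lie near the limit.

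The 4 markers that the rule did not read were found together in most members. Crhr1, Avpr1b, Tbx19 and Doc2g all had a UMI in 583 of 824 corticotrophs, 3 of them in 180, 2 in 48, 1 in 10 and none in 3. No leukocyte, the cell type used here to gauge free RNA, had UMIs of 2 or more of them. The cell type label and the markers therefore went together, although the contrast with other cells was the one that chose the group and carries no test.

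Levels of the receptors, the Pomc activator and Doc2g are given here by lane, as counts per 1000000 of the summed UMIs of a lane's corticotrophs (CPM). These 3′ counts do not grow with transcript length, so no length correction was made. Crhr1, the CRH receptor, was at 261 CPM in female lane A, 261 in female lane B, 257 in male lane A and 261 in male lane B. Avpr1b, the pituitary vasopressin receptor, was at 324 and 285 CPM in female lanes A and B and 342 and 360 in male lanes A and B. Tbx19 was at 186 and 191 CPM in the female lanes and 223 and 216 in the male lanes. Crhr1 was the most even of them, while both male lanes lay above both female lanes for Avpr1b and Tbx19. None of these 3 passed the test for sex, with log2 differences of male over female of -0.07 ± 0.06 (SE) for Crhr1 (adjusted p = 0.75), 0.15 ± 0.06 for Avpr1b (adjusted p = 0.38) and 0.16 ± 0.07 for Tbx19 (adjusted p = 0.42; edgeR quasi-likelihood test, 2 lanes a sex).

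Doc2g was at 1004 CPM in female lane A, 939 in female lane B, 817 in male lane A and 864 in male lane B. The sexes did not overlap, and the log2 difference of male over female was -0.27 ± 0.05 (adjusted p = 0.0058, edgeR). The call was lost without male lane A (log2 -0.24, adjusted p = 0.069), with library size scaling (log2 -0.21, adjusted p = 0.073) and, at an equal log2 of -0.27, after thinning every cell to 4000 UMIs (adjusted p = 0.056).

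**Figure D2:**
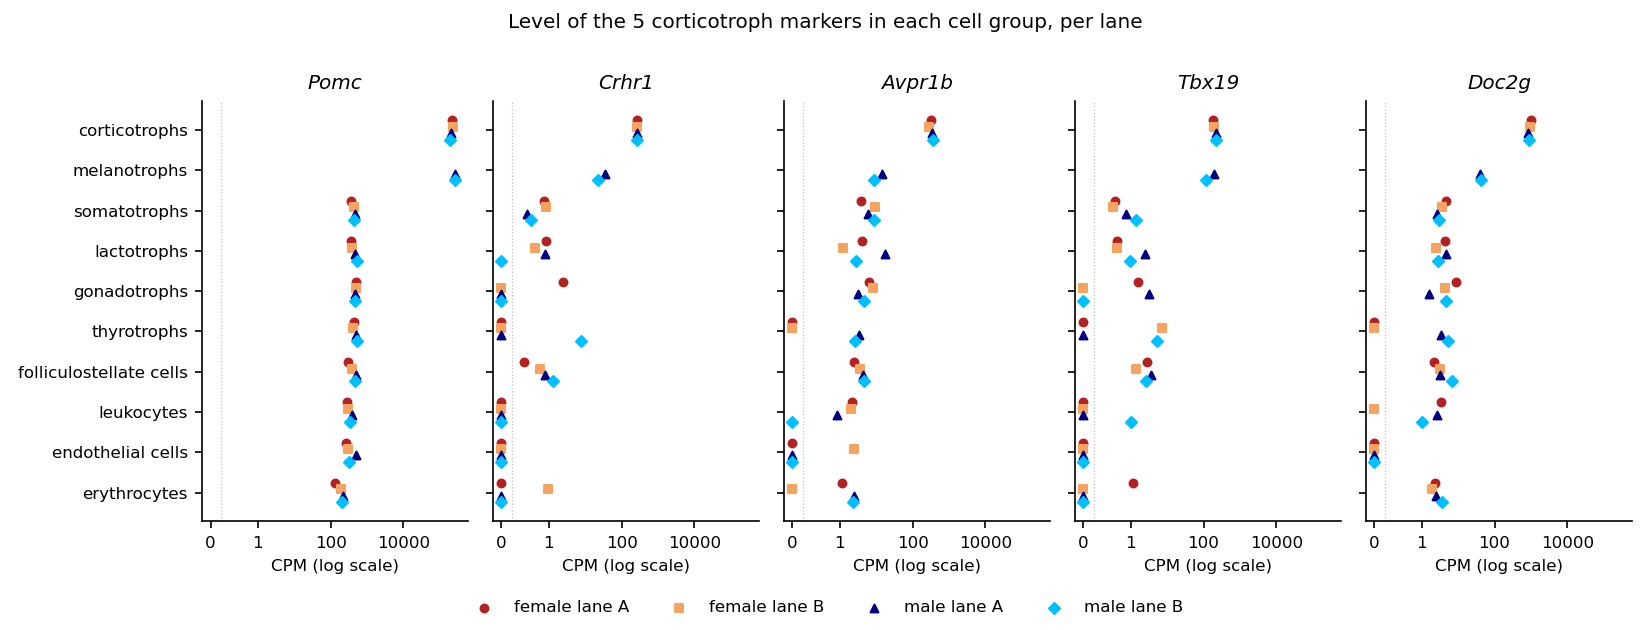
Level of the 5 markers (panels; CPM, log axis) in each cell group (rows), 1 point per lane, with lanes at 0 drawn left of the dotted line and groups with fewer than 10 cells in a lane not drawn. Corticotrophs stand far to the right of the 8 groups other than melanotrophs for all 5 markers, and melanotrophs lie near them for Pomc and Tbx19 only.

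Shares of cells with a UMI were compared at a fixed depth of 4000 UMIs, which left 801 corticotrophs and set 23 shallower ones aside. Crhr1 was then seen in 64.0% of corticotrophs and 0% of 543 leukocytes, Avpr1b in 68.2 and 0.737%, Tbx19 in 52.7 and 0.184%, and Doc2g in 90.5 and 0.737%. Without thinning the shares of corticotrophs were 90.7, 90.2, 82.0 and 98.54%, at a median of 11892 UMIs against 6462.5 in leukocytes. The hormone genes behaved otherwise. Pomc was seen in 72.2% of leukocytes at this depth, Gh1 in 100% of both groups and Prl in 76.5% of corticotrophs and 79.9% of leukocytes. Gh1 and Prl in corticotrophs were thus no more often seen than in leukocytes, a cell type that should lack them.

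Both receptors were seen in 45.6% of the thinned corticotrophs, Crhr1 only in 18.5%, Avpr1b only in 22.6% and neither in 13.4%. With a median of 1 UMI per cell for each, a cell without a UMI cannot be told from one in which the mRNA was missed. Across cells, Crhr1 varied near counting noise, with a variance over mean of 0.897 to 1.27 in the 4 lanes. Avpr1b varied somewhat more than counting noise in every lane, at 1.30 to 1.51.

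Beyond the markers, the genes with the highest ratio of corticotroph CPM to the highest of the 8 other cell groups (melanotrophs aside) were listed as a description of what the rule picked. Among 5217 genes with a UMI in at least 20% of corticotrophs, 28 (0.537%) were at least 3 times above every other group in every lane and 12 at least 10 times. After Pomc (355 to 459 times, lowest to highest lane) came LOC102551166, named Cdhr17 in RefSeq, at 144 to 513 times, Doc2g at 113 to 213 times and Clrn1, the gene of clarin 1, at 62.0 to 141 times. Crhr1 (33.3 to 322 times), Fam89a (28.8 to 64.1), Angptl8 (27.4 to 50.1), Tbx19 (26.4 to 67.8) and Avpr1b (19.5 to 50.01) followed. Clrn1 was at 119 and 118 CPM in the female lanes and 132 and 127 in the male lanes. Some of these ratios rest on few UMIs in the other groups, with 12 in all for LOC102551166, 16 for Angptl8, 42 for Crhr1 and 49 for Clrn1 over the 8 groups and 4 lanes, so their size and order are uncertain. Hspb3 and Lmx1a, with 8 and 12 UMIs over the other groups, had none there in at least 1 lane and were not ranked. The Y-linked Eif2s3y was not ranked either, being at 0 in the other groups of female lane A. It had 3268 UMIs over those groups and all lanes.

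The list went on through genes of several functions. Adh1, an alcohol dehydrogenase, was at 183, 209, 202 and 173 CPM in female lanes A and B and male lanes A and B, and Chrna1, the alpha 1 subunit of the muscle nicotinic acetylcholine receptor, at 106, 101, 83.9 and 87.1 CPM. Adh1 was higher still in melanotrophs, at 358 CPM, whereas Chrna1 had 0 UMIs there. Trdn, the gene of triadin, was at 31.4, 32.5, 40.4 and 38.4 CPM, with 0 UMIs in melanotrophs. Ly6h, of the Ly6 family, was abundant at 1543, 1597, 1629 and 1640 CPM and was 8.65 to 9.47 times above the next group, and Rab3b, a small GTPase of secretory vesicles, was at 1271, 1192, 1258 and 1253 CPM and 6.0 to 11.1 times above it. Both differed little between lanes. Mrap2, an accessory protein of melanocortin receptors, closed the 25 genes at 4.01 to 12.4 times. Of the 25, 23 are also on the study's list of 67 corticotroph genes, which was chosen on these samples and is no independent evidence.

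**Figure D3:**
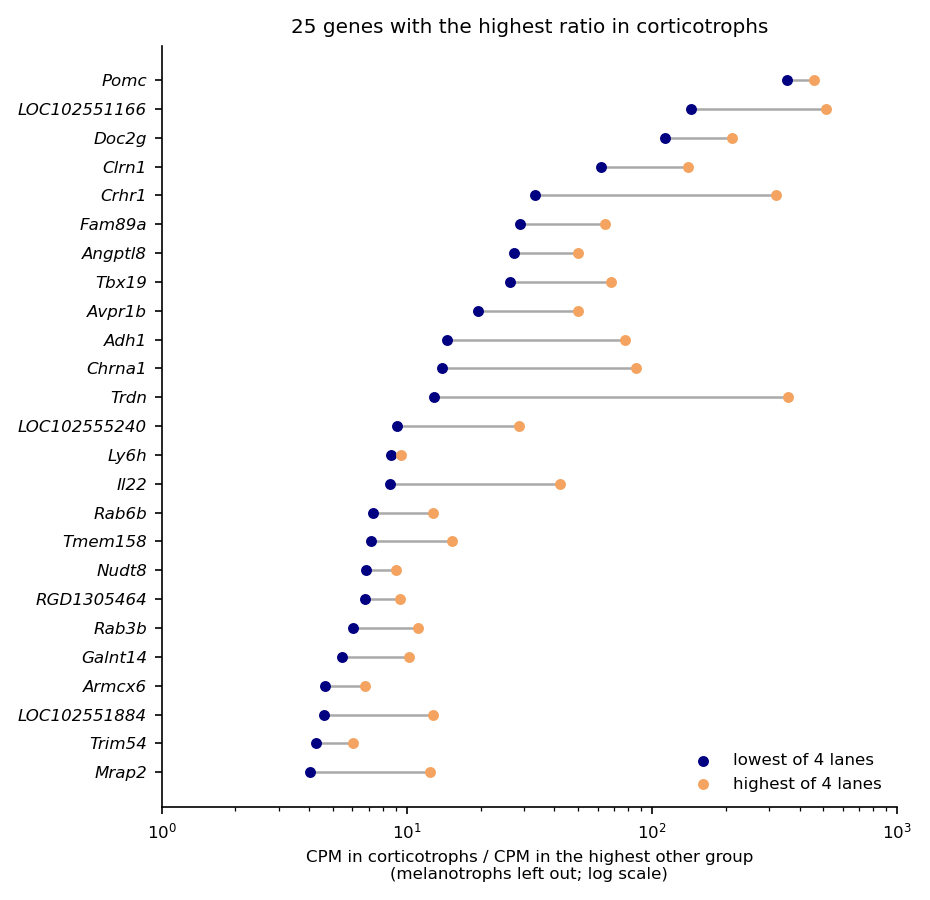
Ratio of CPM in corticotrophs to CPM in the highest other cell group except melanotrophs (x axis, log scale) for the 25 genes with the highest lowest-lane ratio, each bar running from the lowest to the highest of the 4 lanes. Pomc leads at 355 to 459 times, and Mrap2 is last with a lowest lane of 4.01.

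Among 23 lineage and identity factors, 12 were seen in at least 20% of corticotrophs, and 3 of these were higher there than in every other group, melanotrophs aside. With lanes pooled, the same held for 1084 of all 5217 genes seen that often (20.8%), the share beside which such counts in this and the next lists stand. Because this contrast chose the cells, nothing is read from the counts. Neurod1 was at 182, 193, 144 and 177 CPM in female lanes A and B and male lanes A and B, and Lmx1a, a LIM homeodomain factor, at 36.3, 43.4, 38.4 and 38.0 CPM. Neurod1 was higher in both female lanes and Lmx1a overlapped between the sexes, and neither was called for sex. At 4000 UMIs, Neurod1 was seen in 36.7% of corticotrophs and 0% of leukocytes, and Lmx1a in 16.0 and 0%. The pituitary factor Pitx1 was at 178, 170, 165 and 168 CPM, below its level of 307 CPM in thyrotrophs, and Hes6 at 240, 262, 259 and 267 CPM, below 407 in gonadotrophs. These factors are shared by several lineages, and here their highest level lay elsewhere.

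Of 46 genes of CRH and vasopressin receptor signalling, 26 were seen in at least 20% of corticotrophs. With lanes pooled and melanotrophs aside, 10 of these were highest there, against 20.8% of all genes seen that often. Of them, 4 were at least 3 times above every other such group, also with lanes pooled, whereas the 28 genes above met this in every lane. Besides the receptors, Adcy2, an adenylyl cyclase, was at 34.7, 47.3, 49.8 and 53.2 CPM in female lanes A and B and male lanes A and B, 3.70 times the level of the next group. Rasd1, a Ras-related protein first described as induced by dexamethasone, was at 294, 325, 318 and 364 CPM. Neither passed the test for sex. Gnas, which encodes the stimulatory G protein alpha subunit, was abundant at 4942, 4909, 4143 and 4540 CPM but below the 8740 CPM of lactotrophs. Avpr1a and Oxtr, the other vasopressin-family receptors on the list, and Crhbp, the CRH-binding protein, had 0 UMIs in corticotrophs.

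The glucocorticoid feedback list held 26 genes, of which 15 were seen in at least 20% of corticotrophs, and 3 of those were highest there, none by 3 times or more. Nr3c1 was at 161, 146, 166 and 162 CPM in female lanes A and B and male lanes A and B, 1.6 times the level in endothelial cells, the next highest. Thinned to 4000 UMIs, it was seen in 49.4% of corticotrophs, 16.0% of leukocytes and 11.6% of somatotrophs. The male lanes were above the female lanes by less than the female lanes differed. The glucocorticoid targets Tsc22d3 and Klf9, a leucine zipper protein and a Kruppel-like factor, averaged 116 ± 9.83 and 155 ± 17.6 CPM (SD, 4 lanes), below other groups that reached 204 and 366 CPM.

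Of 22 genes for POMC processing and granule content, 14 were seen in at least 20% of corticotrophs. Of those, 3 (Pomc, Cpe and Ptprn2, a granule membrane protein gene) were highest there with melanotrophs aside, and all 3 were higher in melanotrophs over the pooled lanes. Cpe, the carboxypeptidase that trims peptide ends, was at 1653, 1725, 1514 and 1452 CPM in female lanes A and B and male lanes A and B, 1.66 times lactotrophs. Resp18, a neuroendocrine granule protein, was at 8448, 7839, 7306 and 7368 CPM, and Chgb, a granin, at 2142, 2179, 2134 and 2134 CPM. For Cpe and Resp18 both female lanes were above both male lanes, whereas Chgb differed little, and for Resp18 and Chgb thyrotrophs were higher at 11211 and 8571 CPM. The convertase Pcsk1, which makes ACTH from its precursor, was low at 11.4, 17.3, 13.1 and 14.5 CPM. It was seen in 5.49% of thinned corticotrophs against 1.29% of leukocytes and 15.4% of somatotrophs. Pcsk1n, which encodes a convertase inhibitor, is listed with 0 UMIs in every cell, as is Hsp90aa1, so the file's annotation does not measure them.

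Of 34 exocytosis genes, 23 were seen in at least 20% of corticotrophs. With lanes pooled and melanotrophs aside, 13 of these were highest there, against 20.8% of all genes seen that often, and 6 were at least 3 times above every other such group. Over melanotrophs as well, 11 were highest. Snap25, a SNARE protein, was at 589, 586, 620 and 617 CPM in female lanes A and B and male lanes A and B, 1.55 times thyrotrophs, and the granule-docking protein gene Sytl4 at 361, 351, 324 and 296 CPM. Snap25 was slightly higher and Sytl4 lower in both male lanes, and neither passed the test for sex. Sncb, a presynaptic protein gene, averaged 165 ± 11.1 CPM (SD, 4 lanes), 4.29 times the next group.

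Of 41 ion channel genes, 13 were seen in at least 20% of corticotrophs, of which 7 were highest there with melanotrophs aside. Kcnk2, a background potassium channel, was at 255, 238, 248 and 252 CPM in female lanes A and B and male lanes A and B, 2.07 times somatotrophs, and Cacng2, an AMPA receptor and calcium channel accessory subunit, at 94.3, 58.6, 64.3 and 47.4 CPM, 3.39 times somatotrophs. Kcnk2 was even across lanes, while Cacng2 was highest in female lane A. Of 26 cytokine signalling genes, 10 were seen in at least 20% of corticotrophs and 2 of those were highest there, with Il22, which encodes interleukin 22, at 46.1, 49.9, 33.7 and 23.9 CPM. At 4000 UMIs, Il22 was seen in 12.4% of corticotrophs and 0% of leukocytes. Of 25 immediate early genes, 14 were seen in at least 20% of corticotrophs and none were highest there. Fos averaged 2849 ± 266 CPM (SD, 4 lanes), against 9410 in folliculostellate cells.

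Markers of non-endocrine cell types were at or under 152 CPM in sum in every lane, whereas Gh1 and Prl were higher. The summed level of the 4 folliculostellate markers was 45.0, 40.8, 43.8 and 44.6 CPM in female lanes A and B and male lanes A and B, led by S100b, and that of the 4 leukocyte markers 5.42, 35.1, 18.2 and 7.26 CPM, led by Fcer1g. The 4 endothelial markers summed to 6.5, 6.94, 1.68 and 1.73 CPM, led by Plvap. The 4 globin genes summed to 133, 152, 104 and 92.3 CPM, led by Hba-a1, and both female lanes were above both male lanes. Pericyte markers stayed at or under 3.25 CPM, and of the posterior lobe markers Nkx2-1 was at 0. Gh1 was at 2627, 2922, 2937 and 3525 CPM and Prl at 1152, 1182, 318 and 443 CPM, and Prl in leukocytes was at 1351, 1440, 330 and 281 CPM. Of the 20 proliferation genes, 10 corticotrophs had UMIs of 5 or more.

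Melanotrophs share the precursor, so they were set beside corticotrophs in the male lanes, with 638862 melanotroph and 5862110 corticotroph UMIs. Pax7 and Pcsk2 split the 2 groups by rule, and the contrast is a description. Pomc was at 200349 and 192998 CPM in corticotrophs of male lanes A and B and at 256276 and 254467 in melanotrophs. Tbx19 was also present in both, 223 and 216 CPM in corticotrophs against 193 and 119 in melanotrophs. The receptor genes were not alike. Avpr1b was 32.0 times, Doc2g 20.6 times, Nr3c1 15.0 times and Crhr1 9.19 times higher in corticotrophs. Cpe and Scg5, the latter encoding the Pcsk2 chaperone 7B2, were at nearly the same level, with ratios of corticotroph to melanotroph CPM of 0.946 and 1.01. Pcsk1 was 3.51 times higher in melanotrophs.

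The genes furthest apart were taken among those with at least 50 UMIs in both groups together, and the ratios rest on few UMIs in the lower group, so exact 95% counting intervals are given. Toward corticotrophs, Ntrk2, the receptor of brain-derived neurotrophic factor, was at 175 CPM against 1.57 in melanotrophs (112 times, 20 to 4416). Neurod1 was at 161 CPM against 0 UMIs, at least 34.2-fold higher against a floor of 3 UMIs (4.70 CPM), and its exact counting interval begins at 27.7. Clrn1 was 82.7 times (14.8 to 3271), the ankyrin repeat protein gene Asb4 50.02 times (8.93 to 1980) and the fatty acid receptor gene Ffar4 44.0 times (7.86 to 1743) higher. Several of these genes were not particular to corticotrophs. Folliculostellate cells held 262 CPM of Ntrk2 and thyrotrophs 168 CPM of Asb4, above male corticotrophs. Ffar4 was at 53.8 CPM in somatotrophs against 68.9 in male corticotrophs, whereas Clrn1 was at most at 1.48 CPM in the groups other than melanotrophs. LOC100912373, Apol9a, Fabp3, Mxra7 and Hs3st1 completed the 10, with lower bounds between 7.21 and 12.9 times. Fabp3 was at 71.5 CPM in gonadotrophs against 106 in male corticotrophs, and Hs3st1 at 77.9 in folliculostellate cells against 101. Mxra7 was further apart, at 208 CPM against 56.4 in endothelial cells.

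Toward melanotrophs, Pcsk2 and Pax7 were among the 10 by construction. Drd2, the dopamine D2 receptor through which hypothalamic dopamine restrains melanotrophs, was at 200 CPM against 1.54 in corticotrophs (131 times, 66.6 to 292). Thy1, a cell surface glycoprotein of neurons, was at 449 CPM against 4.09 (110 times, 72.3 to 174). Oacyl, an acyltransferase-like gene, and Sema3e, a semaphorin, were at 161 and 146 CPM with 1 UMI each in male corticotrophs (lower bounds 166 and 149 times). Chia, Tmem200a, LOC102555503 and Wnt5b followed at 53.9, 46.9, 32.9 and 32.5 times.

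The spread among corticotrophs was measured as the variance over mean of UMIs per cell at 4000 UMIs, where counting alone gives about 1. Over 1099 genes with a mean of at least 0.5 UMIs, the median of the lowest lane values was 0.977 and 41 genes were at 2 or more in every lane. Pomc led at 130 to 161 in the lanes, which its share of the total and the selection shape. Next was Nnat, the imprinted gene of neuronatin, at 19.8 to 30.7. It was seen in 62.5% of thinned corticotrophs, with a median of 1 UMI, a 95th percentile of 28 and a maximum of 84, so a minority of cells carried most of it. Fos followed at 10.6 to 13.9, then Resp18 at 6.46 to 7.18, Gnas at 4.70 to 7.0, Gadd45g at 4.32 to 7.43 and Zfp36 at 4.25 to 5.23, along with 3 mitochondrial transcripts. Gadd45g and Zfp36 are stress and immediate early response genes, as Fos is. Neurod1 varied more than the receptors, at 2.32 to 3.14.

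Rank correlations with Pomc across the thinned cells of a lane, given as a description, were positive for Cpe and negative for several early genes. Spearman's rho for Cpe was 0.387, 0.396, 0.376 and 0.430 in female lanes A and B and male lanes A and B (160, 179, 232 and 230 cells). For Fos it was -0.216, -0.326, -0.340 and -0.368, and for Rab3b -0.282, -0.232, -0.315 and -0.429. The sign was the same in the 4 lanes for each. These cells share their library, and at a fixed total a cell with more Pomc has fewer UMIs left for other genes.

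Sex was not used to choose the cells, and the female and male lane sums were compared with edgeR's quasi-likelihood test. Of 10207 genes tested, 115 (1.13%) passed an adjusted p of 0.05, 40 (0.392%) higher in males and 75 (0.735%) higher in females. In 44 of the 115 the difference was 2-fold or more. In all 115 the lanes of the sexes did not overlap, but a test of 2 lanes against 2 favours such genes. The share without overlap over all genes was not counted, so this adds no support. The number called was 47 with DESeq2 (13 higher in males and 34 in females) and 53 after thinning to 4000 UMIs (15 and 38). The counts depend on the scaling and the lanes: with library size scaling 84 genes were called, 44 higher in males and 40 in females, and without female lane A or B 215 and 219 genes were called. Over 8918 genes, the median absolute log2 difference was 0.149 by sex, against 0.184 for female lane A over B and 0.151 for male lane A over B. The value by sex is of means over 2 lanes and those within a sex are of single lanes, so the sizes are not on an equal footing.

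**Figure D4:**
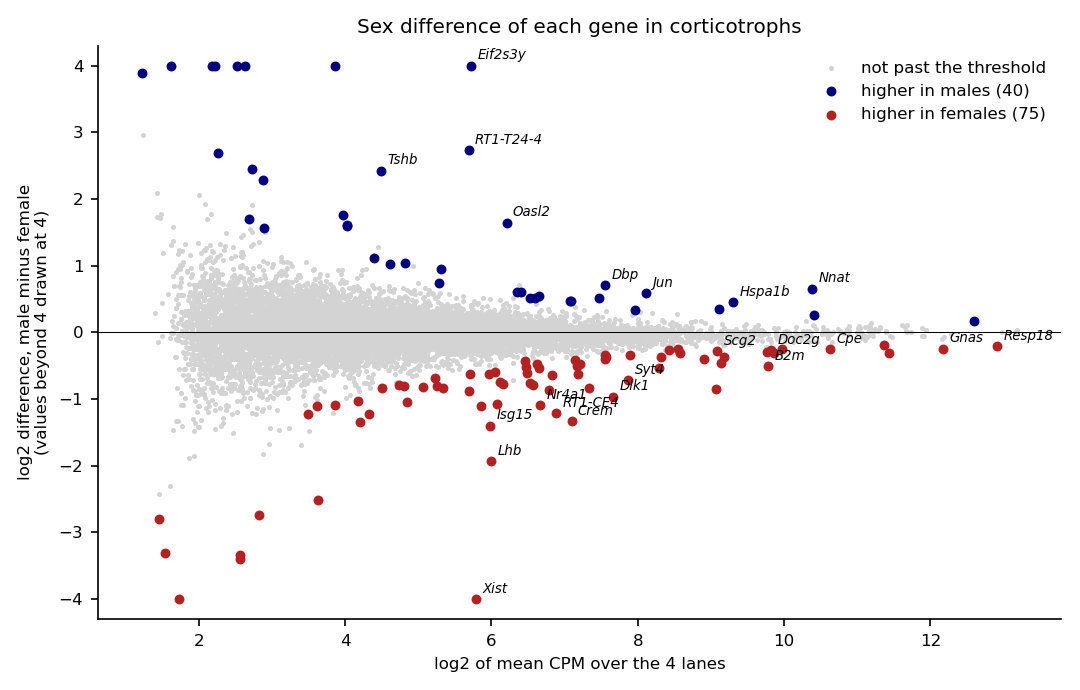
Log2 difference of male over female corticotrophs (y axis) against the log2 of mean CPM (x axis) for 10207 genes, with genes past an adjusted p of 0.05 coloured and values beyond 4 in size drawn at 4. The 40 genes higher in males and 75 higher in females stand outside a cloud centred on a median of 0.002.

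Sex chromosome genes gave the differences of greatest size. Eif2s3y, the Y-linked translation initiation factor gene, was at 0 CPM in both female lanes and 105 and 107 in male lanes A and B, at least 146-fold higher in males (adjusted p = 1.7e-10). Ddx3, a symbol of the Y-linked helicase gene Ddx3y, was at 0, 0, 31.7 and 26.6 CPM (at least 40.4-fold higher in males), the Y-linked demethylase gene Kdm5d at 0, 0, 11.1 and 11.8 (at least 15.8-fold) and LOC103694537, on the Y chromosome in RefSeq, at 0, 0, 9.43 and 8.64 (at least 12.5-fold). These bounds set the female lanes together at 3 UMIs. Xist, the RNA that silences 1 X chromosome in females, was at 104 and 116 CPM in the female lanes and 0.337 and 1.04 in the male lanes (log2 -7.30 ± 0.27, adjusted p = 4.6e-11). The male value rests on few UMIs, and the log2 difference was -6.73 without male lane A and -8.20 without male lane B. Eif2s3x, the X-linked partner of Eif2s3y, was at 121, 117, 65.3 and 77.8 CPM (log2 -0.79 ± 0.11, adjusted p = 0.00042), a call lost after thinning (adjusted p = 0.22). The lanes went with their sex in each of these genes. LOC103694558, with 0.542, 0, 6.74 and 11.4 CPM, was also higher in males (log2 4.91, 7.60 without female lane A and 3.91 without female lane B), though not called by DESeq2.

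Other genes among the 12 with the smallest adjusted p in each direction follow one by one, and no list of their functions was tested. Oasl2, an interferon-induced oligoadenylate synthetase-like gene, was at 33.6 and 35.6 CPM in female lanes A and B and 118 and 109 in male lanes A and B (log2 1.64 ± 0.12, adjusted p = 4.4e-07). Isg15, the interferon-induced ubiquitin-like modifier, was at 81.3 and 99.3 CPM in the female lanes and 37.7 and 34.2 in the male lanes (log2 -1.40 ± 0.14). The lanes of the sexes were well apart for both genes, in opposite directions. Ifi27 was at 658, 627, 491 and 487 CPM and B2m, the invariant chain of class I molecules, at 989, 1041, 779 and 710 CPM (log2 -0.51 ± 0.06), both higher in females. The class I heavy chain gene RT1-CE4 was at 171, 155, 71.4 and 75.4 CPM (log2 -1.21), whereas RT1-T24-4 was at 14.1, 12.1, 93.3 and 87.1 CPM (log2 2.73 ± 0.16, adjusted p = 1.5e-08). The RT1 genes are near-identical copies, so which of them a read came from is uncertain. In leukocytes, where class I genes are abundant, RT1-CE4 was at 2385 and 1950 CPM in the female lanes and 1084 and 881 in the male lanes, and the part of free RNA in the corticotroph values was not tested.

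Immediate early genes were also split. Jun, a subunit of the AP-1 factor, was at 210, 221, 345 and 333 CPM in female lanes A and B and male lanes A and B (log2 0.59 ± 0.07, adjusted p = 7.2e-05), higher in both male lanes. Nr4a1, the orphan receptor gene Nur77 known to act on the Pomc promoter, was at 126, 147, 60.3 and 74.3 CPM (log2 -1.09 ± 0.12, adjusted p = 4.4e-05), higher in both female lanes. Without the 254 members that hold 2 or more markers of a non-endocrine type (237 of them for globin genes), the log2 difference was -1.95 for Nr4a1 and 0.38 for Jun. Of 24 immediate early genes tested, 3 were higher in males and 2 in females (20.8%, against 1.13% called over all genes), with a median log2 of 0.14 against 0.002 over all genes. Fosb, at 144, 143, 243 and 183 CPM, lost its call without male lane A (log2 0.28, adjusted p = 0.26). Atf3, at 18.4, 33.4, 61.3 and 45.6 CPM, lost it without female lane A (log2 0.59, adjusted p = 0.061). Fosl2, at 15.7, 17.3, 8.08 and 7.95 CPM, lost it at a like size (log2 -1.11 with all lanes) without female lane B (-1.001, adjusted p = 0.15), male lane A (-1.13, adjusted p = 0.060) or male lane B (-1.09, adjusted p = 0.073). Fosb, Atf3 and Fosl2 were also not called with DESeq2 or after thinning, nor were Fosb (log2 0.18, adjusted p = 0.76) and Atf3 (0.69, adjusted p = 0.31) without those members.

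In the receptor signalling list, 2 of 34 tested genes (5.88%) were called, both higher in females, against 1.13% called over all genes. Crem, a cAMP response element modulator that is itself induced by cAMP, was at 198 and 189 CPM in female lanes A and B and 75.4 and 84.7 in male lanes A and B (log2 -1.33 ± 0.09, adjusted p = 1.0e-07). Both female lanes lay far above both male lanes. Gnas differed less (log2 -0.24, adjusted p = 0.0058), and its call was lost without male lane A (log2 -0.19, adjusted p = 0.14) and with library size scaling (log2 -0.18, adjusted p = 0.055). The receptors and the adenylyl cyclases were among the 32 not called, and the list's median log2 was 0.12.

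Of 17 genes for POMC processing and granule content tested, 4 were higher in females and none in males, against 1.13% called over all genes, with a list median of -0.11. Resp18 (log2 -0.21 ± 0.04, adjusted p = 0.0057) and Cpe (-0.25 ± 0.05, adjusted p = 0.012) were given above by lane. Scg2, the gene of secretogranin II, was at 580, 593, 495 and 512 CPM in female lanes A and B and male lanes A and B (log2 -0.28 ± 0.05, adjusted p = 0.0093), and Ptprn, a granule membrane protein also called IA-2, at 265, 258, 228 and 204 CPM (log2 -0.34 ± 0.07, adjusted p = 0.029). Each difference was small and the lanes of the sexes did not overlap. Resp18 lost its call without male lane A (log2 -0.21, adjusted p = 0.052) or B (log2 -0.21, adjusted p = 0.057), at the same size as with all lanes (-0.21). Cpe lost it without male lane B (log2 -0.21, adjusted p = 0.091), as did Ptprn (log2 -0.25, adjusted p = 0.26), and with library size scaling Resp18, Scg2 and Ptprn were not called. DESeq2 and the thinned counts did not call Scg2 (log2 -0.29 and -0.26) or Ptprn (-0.34 and -0.26). Without the 254 members that hold 2 or more markers of a non-endocrine type, globin genes included, Cpe (log2 -0.15, adjusted p = 0.21), Scg2 (-0.18, 0.27) and Ptprn (-0.30, 0.098) were not called, and without outliers in depth and mitochondrial share neither were Cpe (0.056) and Ptprn (0.083).

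In the exocytosis list, 2 of 31 tested genes were called, Doc2g and Syt4. Syt4, a synaptotagmin of secretory vesicles, was at 293 and 281 CPM in female lanes A and B and 180 and 184 in male lanes A and B (log2 -0.72 ± 0.07, adjusted p = 5.8e-06). No gene was called among 17 lineage factors, 28 ion channel genes, 12 steroid and thyroid hormone receptor genes and 23 genes of protein folding and the unfolded protein response, whose medians were -0.07, -0.04, 0.17 and 0.01. In the glucocorticoid list only Ddit4, a stress-induced inhibitor of mTOR complex 1, was called among 21, at 74.2, 84.6, 124 and 120 CPM (log2 0.54 ± 0.10, adjusted p = 0.011). The call was not made with DESeq2 or after thinning, at nearly the same size (log2 0.55 in both). Nor was it made without the members that hold non-endocrine markers (log2 0.41). Among 17 cytokine genes only Il22 was called (log2 -0.80 ± 0.17, adjusted p = 0.022), and not without male lane B (log2 -0.57, adjusted p = 0.094). These shares compare with 1.13% over all genes.

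Of the study's corticotroph list, chosen on these samples, 66 genes were tested, with 1 higher in males and 5 higher in females (9.09%, against 1.13% over all genes). Angptl8, an angiopoietin-like regulator of lipoprotein lipase, was at 34.1 and 42.1 CPM in female lanes A and B and 17.5 and 21.4 in male lanes A and B (log2 -1.04 ± 0.18, adjusted p = 0.0057). DESeq2 and the thinned counts did not call it, at a like size (log2 -1.04 and -1.13). Doc2g, Il22, Celf4 and Nudt8 were the other genes higher in females, and Prr15l was higher in males at 117, 107, 170 and 150 CPM. Calls were lost with fewer lanes while the size of the difference was nearly the same for Celf4 (log2 -0.37, and -0.34 with adjusted p = 0.068 without male lane A) and Nudt8 (log2 -0.27, and -0.24, -0.26 and -0.28 with adjusted p = 0.070, 0.11 and 0.067 without female lane B, male lane A and male lane B). Prr15l went from 0.46 to 0.36 without male lane A (adjusted p = 0.11). These genes and Il22 were also not called with DESeq2 or after thinning.

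Other genes among the smallest adjusted p-values had varied roles. Nnat, the most uneven gene after Pomc, was at 1049 and 981 CPM in female lanes A and B and 1596 and 1729 in male lanes A and B (log2 0.65 ± 0.05, adjusted p = 2.7e-07). Dbp, a clock output factor, was at 133, 144, 228 and 247 CPM (log2 0.71 ± 0.08, adjusted p = 6.5e-05), and Hspa1b, a heat shock protein gene with a near-identical copy, at 488, 553, 775 and 714 CPM (log2 0.45 ± 0.07, adjusted p = 0.0013, and 0.70 without the members that hold non-endocrine markers). All 3 were higher in both male lanes. Ubb, a polyubiquitin gene, was at 741, 620, 433 and 353 CPM, and Fam111a, a protease gene, at 202, 204, 126 and 111 CPM. Both were higher in the female lanes, here and in somatotrophs, where Ubb was at 505, 428, 279 and 221 CPM.

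Some calls were on genes that belong to other cells. Lhb, the luteinizing hormone beta subunit, was at 94.8, 106, 27.3 and 28.0 CPM in corticotrophs of female lanes A and B and male lanes A and B (log2 -1.93 ± 0.13), and at 69.7, 99.4, 31.9 and 29.7 CPM in leukocytes. Tshb, the thyrotropin beta subunit, was at 7.05, 6.51, 39.1 and 37.0 CPM in corticotrophs (log2 2.42 ± 0.22), and at 5.54, 14.5, 31.9 and 50.2 CPM in leukocytes. For both genes the direction was the same in leukocytes, which do not make these hormones. How much of the corticotroph values was free RNA was not tested. Of the 115 calls, 12 were on genes whose corticotroph level is under 5% of the highest other group, 6 in each direction. At 5% or more were 103 of the 115 calls and 9971 of the 10207 genes tested. Genes under 5% were thus a larger part of the calls than of all genes. Hba-a1 was also higher in females at 73.7, 83.3, 56.2 and 52.2 CPM, a call lost without female lane B (adjusted p = 0.12) and, at a like size of log2 -0.54 to -0.60, with library size scaling (adjusted p = 0.062), thinning (0.33) and DESeq2 (0.44).

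Somatotrophs, the largest hormone-producing group with 2017 cells, served to ask whether a sex difference was shared. In them 2828 of 12252 tested genes (23.1%) were called. In the test of the difference itself 758 of 12288 genes (6.17%) were called, or 186 with DESeq2. Among the 115 genes called in corticotrophs, 52 were called in the same direction in somatotrophs, 10 of these with a different size by the interaction test. The sex effect differed from that in somatotrophs for 50 of the 115. For 26 the direction was opposite and called in both groups, 22 higher in female corticotrophs and 4 (Hist3h2ba, Stmn1, Hspa1b and the transcript ENSRNOG00000034234) higher in male corticotrophs. Without female lane A or B the interaction test called 443 and 441 genes.

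Nr4a1 and Crem were the widest apart of the opposite genes by adjusted p. Nr4a1, at 126, 147, 60.3 and 74.3 CPM in corticotrophs of female lanes A and B and male lanes A and B, was at 47.8, 70.1, 226 and 245 in somatotrophs, an interaction of -3.00 on the log2 scale (adjusted p = 1.6e-14). Crem, at 198, 189, 75.4 and 84.7 CPM in corticotrophs, was at 112, 117, 199 and 197 in somatotrophs (interaction -2.05, adjusted p = 1.6e-12). The female lanes were higher in one cell type and lower in the other for both genes. Dlk1, which encodes a Notch ligand-like protein, was at 290, 239, 147 and 134 CPM in corticotrophs and at 6192, 5942, 7977 and 7778 in somatotrophs (interaction -1.27), so its corticotroph level is under 5% of that of somatotrophs. Syt4 was at 101, 106, 138 and 141 CPM in somatotrophs (interaction -1.07), and B2m at 648, 658, 792 and 833 (interaction -0.75).

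The granule genes called in corticotrophs were opposite in somatotrophs as well. Resp18 was at 5930, 5902, 7573 and 7263 CPM in somatotrophs of female lanes A and B and male lanes A and B, Scg2 at 465, 417, 547 and 547, and Ptprn at 231, 240, 421 and 445, each higher in the male lanes where corticotrophs were higher in the female lanes. The interactions were -0.46, -0.52 and -1.14 on the log2 scale, with adjusted p of 1.1e-07, 9.6e-06 and 1.1e-09. Genes outside the naming rule, picked after their values were seen, add to the range. Nmb, the gene of neuromedin B, was at 104, 123, 72.7 and 68.4 CPM in corticotrophs and 8.61, 5.69, 31.8 and 28.6 in somatotrophs, and Coq10b at 104, 102, 68.0 and 81.6 against 55.5, 61.4, 192 and 199. Of the male-higher genes, Stmn1, the gene of the microtubule regulator stathmin, was at 1235, 1195, 1536 and 1485 CPM in corticotrophs and 593, 560, 504 and 506 in somatotrophs. In each of these genes the lanes of the sexes did not overlap in either group.

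**Figure D5:**
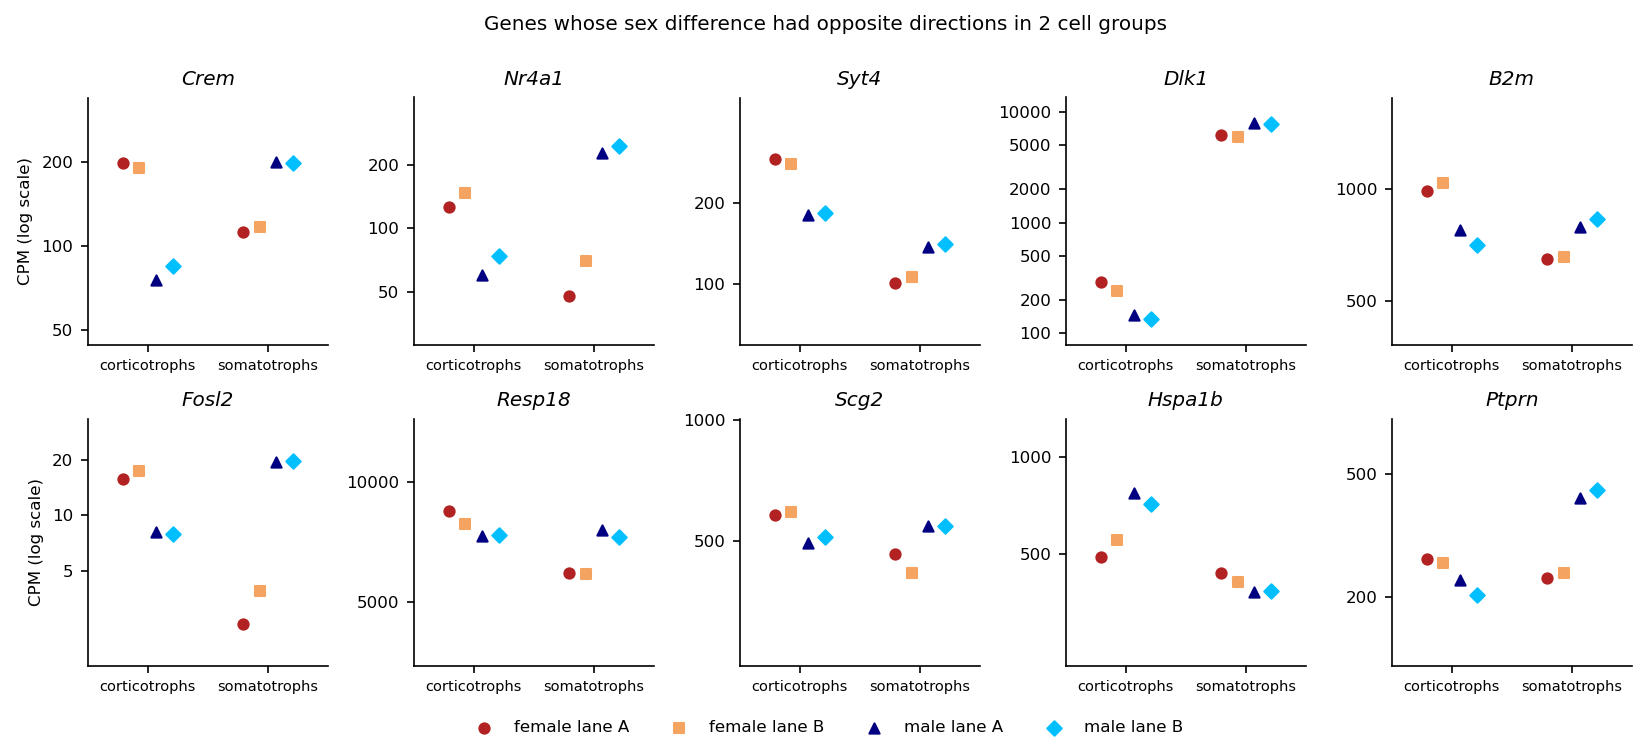
Level in each lane (CPM, log axis, own range per gene) of 10 genes in corticotrophs and in somatotrophs, female and male lanes in different colours. Female lanes are higher in corticotrophs and lower in somatotrophs for 9 genes, and Hspa1b shows the reverse.

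Crem is a cAMP-responsive gene, and its promoter windows are shown for the full cAMP response element TGACGTCA, which reads the same on both strands. Of the 22 genes called higher in female corticotrophs and lower in female somatotrophs, 20 were in the RefSeq table and 2 had a window with it, Crem and Scg2. It is found in 1.83% of all single windows, but Crem has 3 windows and prompted the search, so the counts are not compared. The windows are shown with the element in capitals, along with an E-box in the first.
Crem, window at chr17:58984547-58984846, plus strand: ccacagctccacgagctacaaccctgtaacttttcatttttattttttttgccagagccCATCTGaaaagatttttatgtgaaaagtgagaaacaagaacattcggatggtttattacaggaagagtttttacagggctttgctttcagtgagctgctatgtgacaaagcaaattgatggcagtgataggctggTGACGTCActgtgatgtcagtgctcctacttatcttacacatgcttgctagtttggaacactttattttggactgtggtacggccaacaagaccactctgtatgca
Crem, window at chr17:58985240-58985539, plus strand: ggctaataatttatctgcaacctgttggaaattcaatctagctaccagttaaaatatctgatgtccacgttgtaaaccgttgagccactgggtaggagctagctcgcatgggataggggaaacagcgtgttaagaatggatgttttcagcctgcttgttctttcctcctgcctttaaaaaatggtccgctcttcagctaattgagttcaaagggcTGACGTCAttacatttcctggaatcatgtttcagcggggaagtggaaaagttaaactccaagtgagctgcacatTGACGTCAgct
Scg2, window at chr9:88256817-88257116, minus strand: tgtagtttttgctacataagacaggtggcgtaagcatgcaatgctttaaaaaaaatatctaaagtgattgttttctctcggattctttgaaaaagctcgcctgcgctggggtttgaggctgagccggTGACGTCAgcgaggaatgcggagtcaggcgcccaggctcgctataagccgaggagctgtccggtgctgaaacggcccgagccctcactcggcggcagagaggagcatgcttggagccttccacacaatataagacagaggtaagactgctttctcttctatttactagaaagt
The element began 56 bases before the start in the first Crem window, 35 bases before and 39 bases after it in the second, and 123 bases before it in Scg2. Both Crem windows lie downstream of a further Crem start whose window held no copy. The Nr4a1 window held none of the motifs searched. These matches are descriptions of the sequence and no site was measured.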

How the data were processed

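Per the labels and the study's methods, the authors prepared 3′ libraries with UMIs and aligned them with Cell Ranger (version 2.1) to an NCBI rat reference whose 3′ gene ends were extended irrespective of strand, with mitochondrial genes added. The 4 libraries were then aggregated with Cell Ranger's normalization by mapped reads, and the median UMIs per cell still ranged from 7971 to 9413 between lanes. The deposited values are UMI counts per gene and cell in 1 matrix, and its 4 barcode suffixes were matched to the sexes by the cell numbers the study gives, without replicate numbers.

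Members were found by the rule, and their counts were summed per lane. The members and gene lists were chosen with earlier results of these data known. Sums were tested with edgeR 4.0.16 in R 4.3.3 (quasi-likelihood, TMM, filterByExpr with a minimum count of 10, Benjamini-Hochberg over all genes, adjusted p of 0.05), tested on simulated data. The 6 rule genes stayed in the fit but not in the counts of calls. The interaction was fitted on corticotroph and somatotroph sums with lane as a term. Alternatives included DESeq2 1.42.0, other scaling, no filter, thinning, stricter members and each lane left out. Comparisons of corticotrophs with other cells carry no test. Named genes were the markers, the most abundant and the called members of each list, up to 12 genes per direction by adjusted p, and the extremes of the cell group, melanotroph and spread rankings.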

Additional observations from a re-analysis of the deposited data

Results flagged for a closer look

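The following genes, called for sex in corticotrophs, had a sex effect that differed from that in somatotrophs by edgeR's interaction test (adjusted p under 0.05, 2 lanes a sex in each cell group). Values are the log2 difference of male over female in corticotrophs minus that in somatotrophs. Among secretory and signalling genes, the interaction was -2.05 for Crem, -1.07 for Syt4, -1.14 for Ptprn, -0.52 for Scg2, -0.46 for Resp18, -0.58 for Cpe and -0.48 for Gnas. Among early genes it was -3.00 for Nr4a1 and -3.62 for Fosl2, the latter on 69 UMIs in female and 47 in male corticotrophs. It was -0.75 for B2m, -0.64 for RT1-CE4, -0.91 for Isg15 and -2.37 for Oasl2. RT1-CE4, Isg15 and Oasl2 differed in size rather than being called in opposite directions. The value was -1.27 for Dlk1, -0.77 for the RNA-binding protein gene Celf4, 0.66 for Hspa1b and 0.57 for Nnat. Hba-a1, a globin gene of erythrocytes, was at -2.65, with 545 and 207 CPM in somatotrophs of male lanes A and B against 76.4 and 89.0 in those of the female lanes.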

How the results depend on the processing

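No paired analysis was possible because the lanes carry no replicate numbers that could join a female to a male lane. The count of 115 genes called for sex became 47 with DESeq2 (13 higher in males), 53 after thinning to 4000 UMIs, 33 at an adjusted p of 0.001 and 155 to 219 with each lane left out, where the lone lane of a sex is taken to vary like the others. Library size scaling gave 84 calls, split 44 to 40 in place of 40 to 75, and the other alternatives gave 88 to 172, with 103 when genes under 5% of the highest other cell group were set aside, a choice made after seeing the data. The interaction count of 758 became 186 with DESeq2 and 441 to 687 with each lane left out. Of 41 genes named for sex, 23 stayed past the threshold in every alternative that gave a value, 18 lost it in at least 1 (14 after thinning, 13 with DESeq2, 11 with library size scaling) and 0 reversed. The corticotroph share stayed between 9.77 and 10.9%. The median spread of the 10 most uneven genes, 5.21, was 3.30 at 2000 UMIs and 19.8 without thinning, since variance over mean grows with depth. The causes of the other changes were not tested. With 2 lanes of 1 pool per sex, variation between animals was not measured.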

Other observations

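Nuclear hormone receptors other than Nr3c1 were mostly low in corticotrophs. Thra, a thyroid hormone receptor, was at 125 and 109 CPM in female lanes A and B and 120 and 110 in male lanes A and B, below 174 CPM in folliculostellate cells. The estrogen receptor gene Esr1 was at 0.542, 1.73, 4.38 and 4.15 CPM, against 65.7 CPM in gonadotrophs. Of 16 such receptor genes, 4 were seen in at least 20% of corticotrophs, and of those only Nr3c1 was highest in them.

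Of 23 genes of protein folding and the unfolded protein response, 19 were seen in at least 20% of corticotrophs and none of these was highest there. Hspa5, the chaperone BiP of the endoplasmic reticulum, was at 392 and 392 CPM in the female lanes and 465 and 442 in the male lanes, against 1014 CPM in thyrotrophs.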
